A study of Mus musculus with 6 samples.

Results

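The 35 genes described here are the B lineage genes of a fixed list of symbols: the antigen receptor and immunoglobulin genes of B cells, their co-receptors and surface proteins, their signalling proteins and transcription factors, and 3 plasma cell genes. They were listed by symbol, with earlier results of these data known, and belong to the 55487 genes of the count files. Of the 35 members, 29 were listed in the table of 13564 normalized genes that the authors deposited. The other 6 (Fcer2a, Cd180, Blk, Pax5, Spib and Sdc1) were read from the count files. With a minimum of 10 counts in at least 3 libraries, 30 members of 13691 genes were tested and 5 (Fcer2a, Cd180, Pax5, Spib and Sdc1) were not.

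The series compared naive CD4 T cells from lymph nodes of young adult Foxo1TKO mice (3 libraries) and Foxo1Ctrl mice (3 libraries) on the C57BL/6J strain. Foxo1TKO mice carry floxed Foxo1 alleles and a Cre recombinase driven by Cd4, which acts in the thymus and so deletes Foxo1 in CD4 and CD8 T cells, whereas Foxo1Ctrl mice carry the floxed alleles without the recombinase. In both groups, the T cells were activated for 4 days with 0.1 µg per ml of the anti-CD3 antibody 145-2C11 and 250000 splenocytes of CD3eKO mice, so the splenocytes, which still hold B cells but no T cells, carried no Foxo1 deletion in any culture. The labels give 50000 T cells per culture and the study's methods a larger number, and neither says whether T cells and splenocytes were separated before the RNA was extracted.

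A B cell recognizes antigen with a membrane immunoglobulin, whose signal is passed on by the Cd79a and Cd79b chains to the kinases Lyn, Syk and Btk, the adaptor Blnk and the phospholipase Plcg2. Surface proteins such as Cd22 and Cd72 dampen this signal and others such as Cr2 raise it, while Pax5 and Ebf1 hold the cells to the B lineage. When a B cell becomes a plasma cell it turns to secretion, with Jchain joining immunoglobulin units and Mzb1 helping to assemble them in the endoplasmic reticulum.

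Promoter sequences of members that rose, of members that fell and of members with motifs of B lineage factors are shown first. RefSeq (GRCm38.p6) gave 29 windows of 250 bases upstream of a transcription start for 23 of the 35 members. The windows below are those of Cd72 and Pou2af1, which were higher in Foxo1TKO cultures, of the scaffold Bank1, the receptor chain Cd79a and the plasma cell gene Jchain, which were lower, and of Cd22 and Blnk, which hold motifs of B lineage factors. They are written 5′ to 3′ on the strand of the gene, in lower case. Capitals mark, on either strand, the octamer ATGCAAAT, the PU.1 and Spi-B motif GAGGAAGT, the EBF motif (TCCC and GGGA with 2 bases between them) and the E-box CAGGTG.
Cd72 (chr4:43454627-43454876, minus strand): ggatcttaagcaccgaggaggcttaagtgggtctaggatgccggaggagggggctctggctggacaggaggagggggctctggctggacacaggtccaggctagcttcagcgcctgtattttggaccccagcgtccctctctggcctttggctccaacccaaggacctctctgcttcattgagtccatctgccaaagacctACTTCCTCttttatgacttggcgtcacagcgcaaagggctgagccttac
Pou2af1 (chr9:51213440-51213689, plus strand): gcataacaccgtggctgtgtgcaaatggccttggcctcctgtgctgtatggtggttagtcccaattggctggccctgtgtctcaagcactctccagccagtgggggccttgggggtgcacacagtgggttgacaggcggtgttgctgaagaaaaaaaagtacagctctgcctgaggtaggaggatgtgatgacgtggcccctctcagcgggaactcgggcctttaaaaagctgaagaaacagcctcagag
Bank1 (chr3:136326067-136326316, minus strand): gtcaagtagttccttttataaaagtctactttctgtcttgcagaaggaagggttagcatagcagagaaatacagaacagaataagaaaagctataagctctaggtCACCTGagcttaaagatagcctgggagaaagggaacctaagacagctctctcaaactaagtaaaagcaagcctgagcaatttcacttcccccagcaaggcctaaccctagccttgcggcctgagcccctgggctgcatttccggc
Cd79a (chr7:24897247-24897496, plus strand): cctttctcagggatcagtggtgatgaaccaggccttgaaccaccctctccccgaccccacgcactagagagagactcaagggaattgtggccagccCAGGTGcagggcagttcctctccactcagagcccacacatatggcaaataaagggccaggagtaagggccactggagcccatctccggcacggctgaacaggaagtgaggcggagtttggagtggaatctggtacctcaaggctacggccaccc
Jchain (chr5:88527898-88528147, minus strand): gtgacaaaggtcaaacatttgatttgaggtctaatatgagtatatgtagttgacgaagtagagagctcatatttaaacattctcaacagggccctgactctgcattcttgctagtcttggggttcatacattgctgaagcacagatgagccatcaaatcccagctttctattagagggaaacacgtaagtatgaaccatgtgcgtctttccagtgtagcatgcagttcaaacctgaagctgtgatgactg
Cd22 (chr7:30879029-30879278, minus strand): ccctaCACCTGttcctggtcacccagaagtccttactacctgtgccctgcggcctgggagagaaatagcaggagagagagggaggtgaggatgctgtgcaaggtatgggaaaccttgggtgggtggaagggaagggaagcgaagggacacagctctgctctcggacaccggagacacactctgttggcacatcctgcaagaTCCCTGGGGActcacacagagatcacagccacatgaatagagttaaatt
Blnk (chr19:40994222-40994471, minus strand): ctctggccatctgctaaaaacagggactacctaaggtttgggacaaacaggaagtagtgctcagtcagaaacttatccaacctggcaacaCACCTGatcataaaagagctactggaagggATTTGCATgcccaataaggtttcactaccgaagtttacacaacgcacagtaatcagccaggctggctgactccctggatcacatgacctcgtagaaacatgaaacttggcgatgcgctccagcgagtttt

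The octamer, the site of the factors that Pou2af1 binds as a co-activator, was found in the windows of Blnk and Vpreb3 and in 1.6% of the 32851 promoter windows searched. The PU.1 and Spi-B motif was found among the members only in the Cd72 window, with its first base 49 bases upstream of the start, and in 2.44% of all windows. The EBF motif was found among the members only in the Cd22 window, against 0.78% of all windows. The E-box was found in 10 of the 29 windows (Bank1, Blnk, Cd22, Cd79a, Cr2, Fcer2a, Fcrla, Plcg2 and both of Syk), against 17.22% of all windows, and overlapped none of the other motifs. The forkhead motif GTAAACA was in none of the 29 windows and in 3.17% of all. These matches are letters in a window and were not tested for binding.

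The libraries held between 14783890 and 19675447 expected counts, and the first principal component of all tested genes, with 66.4% of the variance, separated the genotypes. Foxo1, the deleted gene, was at 46.5 to 115 normalized counts in the Foxo1TKO libraries and at 1529 to 2285 in the Foxo1Ctrl libraries, with a log2 fold change of -4.45 (SE 0.36, adjusted p = 0.000195). Log2 fold changes here are of Foxo1TKO over Foxo1Ctrl, from the quasi-likelihood test of edgeR, and p-values were adjusted by the Benjamini-Hochberg method across the whole table. A gene was called where its adjusted p was below 0.05 and its fold change exceeded 1.5. Nothing in the labels says that the 3 libraries of a genotype came from separate animals, so the p-values measure the spread between these libraries, which may be technical.

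More B lineage genes fell than rose in the Foxo1TKO cultures, but the members did not move as a block. Of the 30 tested members, 13 fell (Ighm, Igkc, Iglc2, Iglc3, Cd79a, Cd79b, Cd22, Ms4a1, Fcrla, Bank1, Bcl11a, Jchain and Mzb1), 3 rose (Cd72, Cd24a and Pou2af1) and 14 did not pass. Over all 13691 genes tested, 11.8% were called lower and 11.1% higher. The counts of called genes in the groups and lists below stand beside these shares. The members called lower had log2 fold changes from -1.33 to -2.59. The median log2 fold change was -1.36 over the tested members and 0.01 over all tested genes. Cd22 and Bcl11a passed the count minimum through the Foxo1Ctrl libraries alone, so the filter itself required them to be higher there. Without them, 11 members passing in both genotypes fell, with log2 fold changes from -1.33 (Iglc2) to -2.47 (Iglc3). The normalized counts of the genotypes did not overlap for 21 of the 30 members (17 lower and 4 higher), against 42.7% of all tested genes. Cd22 and Bcl11a are counted among these 17 and in the median of the tested members as well. In these mixed cultures, fewer B lineage cells and less RNA per cell cannot be told apart, and neither can transcripts of the splenocytes and transcripts of the T cells.

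**Figure D1:**
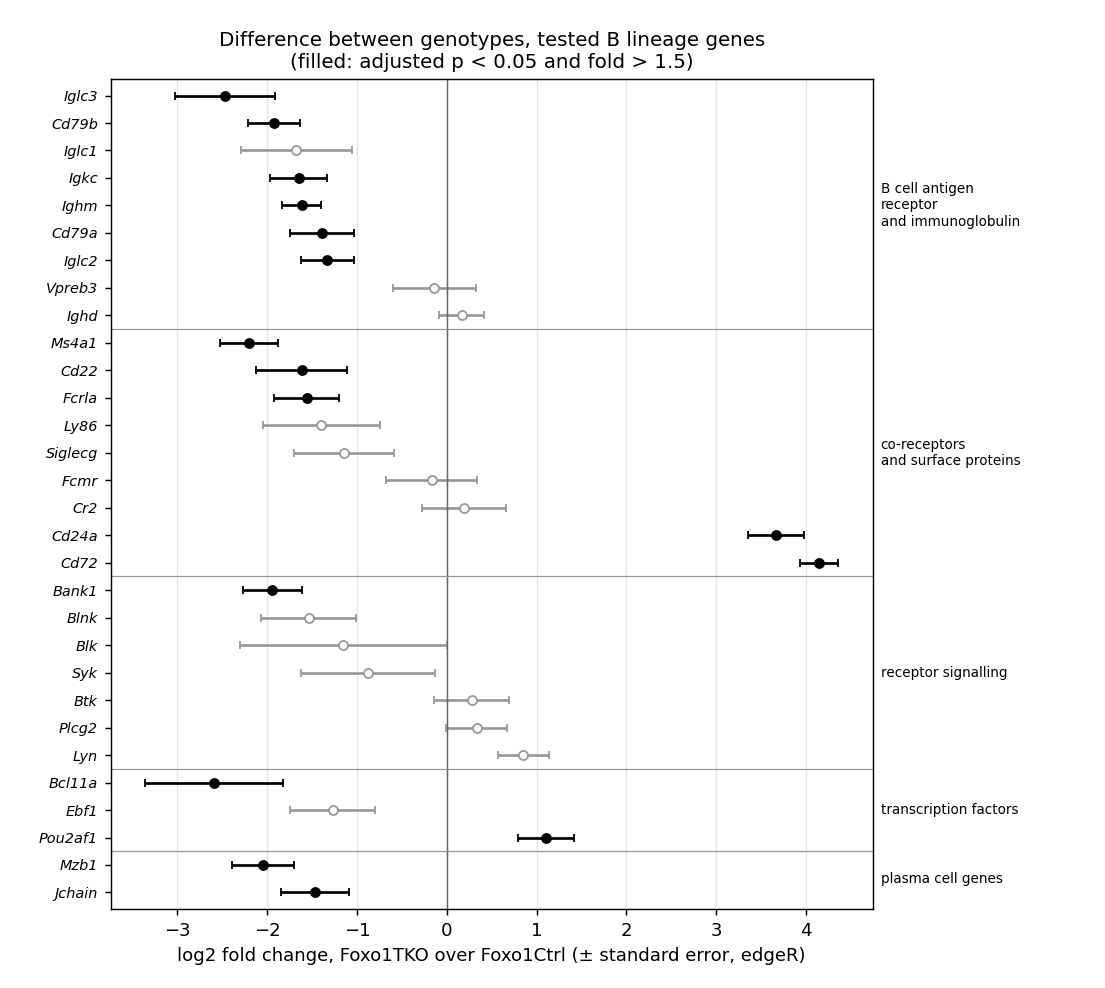
Log2 fold change of each tested member, Foxo1TKO over Foxo1Ctrl, with its standard error from edgeR, grouped by role and sorted within a role; filled points are the called members. The 13 members called lower lie between -2.59 and -1.33, and Cd72 at 4.15, Cd24a at 3.67 and Pou2af1 at 1.11 lie on the other side of 0.

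Among the 9 genes of the antigen receptor and of immunoglobulin, 6 fell, none rose and 3 did not pass, with a median log2 fold change of -1.61. Ighm (chr12:113418558-113422730, GRCm38, minus strand), the constant region of the μ heavy chain, was at 6035, 5799.6 and 4888 normalized counts in the Foxo1TKO libraries and at 21248, 12515 and 17424 in the Foxo1Ctrl libraries. The highest Foxo1TKO library was below the lowest Foxo1Ctrl library, and the means differed 3.06-fold (log2 fold change -1.61, SE 0.22, adjusted p = 0.00173). Igkc (chr6:70726435-70726966, plus strand), the κ light chain constant region, was at 919, 2212 and 1610 against 4782, 6084 and 3999 normalized counts. Foxo1TKO replicate 1 was the lowest library for Igkc and none of the Foxo1TKO libraries reached the Foxo1Ctrl range (log2 fold change -1.65, SE 0.32, adjusted p = 0.00834).

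The λ light chain constant regions Iglc1, Iglc2 and Iglc3 are related genes. Reads can be split between similar copies, so their separate values are uncertain. Summed over the 3 genes, the expected counts were 256, 435 and 463 in Foxo1TKO libraries and 881, 1569 and 721 in Foxo1Ctrl libraries. Iglc2 was at 123, 118 and 168 normalized counts in Foxo1TKO libraries and at 253, 483 and 299 in Foxo1Ctrl libraries (log2 fold change -1.33, SE 0.30, adjusted p = 0.0147). Iglc3 was at 44.8, 52.6 and 32.2 against 191, 451 and 94.95 (log2 fold change -2.47, SE 0.56, adjusted p = 0.0148). Iglc1 was at 48.2, 211 and 296 against 607, 861 and 304, and its difference did not pass (log2 fold change -1.67, SE 0.62, adjusted p = 0.0881), with the highest Foxo1TKO library close to the lowest Foxo1Ctrl library. Both calls depended on single libraries: without Foxo1TKO replicate 2 the adjusted p was 0.076 for Iglc2 and 0.0538 for Iglc3, and without Foxo1TKO replicate 3 it was 0.0579 for Iglc3.

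Cd79a (chr7:24897381-24902197, plus strand) and Cd79b (chr11:106311341-106314762, minus strand), the signalling chains of the receptor, both fell. Cd79b was at 47.3, 77.2 and 52.6 normalized counts in Foxo1TKO libraries and at 184, 279 and 218.0 in Foxo1Ctrl libraries, a 3.84-fold difference of the means (log2 fold change -1.92, SE 0.29, adjusted p = 0.00283). Cd79a was at 45.6, 50.0 and 63.3 against 173, 78.9 and 168 (log2 fold change -1.39, SE 0.36, adjusted p = 0.0252). The genotypes did not overlap for either chain, but Foxo1Ctrl replicate 2 lay well below the other Foxo1Ctrl libraries for Cd79a while it held the most Cd79b. The Cd79a call was lost in 4 of the 6 leave-one-out fits, with adjusted p of 0.0663 without Foxo1TKO replicate 1, 0.101 without Foxo1TKO replicate 2, 0.0877 without Foxo1Ctrl replicate 1 and 0.0872 without Foxo1Ctrl replicate 3.

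Ighd, the constant region of the δ heavy chain that mature naive B cells carry beside μ, did not follow Ighm. It was at 134, 191 and 222 normalized counts in Foxo1TKO libraries and at 143, 174 and 171 in Foxo1Ctrl libraries, with overlapping groups (log2 fold change 0.17, SE 0.25, adjusted p = 0.679). On the TPM scale, which is per gene length, the ratio of Ighm to Ighd was 51.6, 35.3 and 25.4 in Foxo1TKO libraries and 171, 83.0 and 117 in Foxo1Ctrl libraries. Vpreb3, which associates with immunoglobulin chains in developing B cells, was at 13.5, 21.1 and 33.3 against 27.4, 30.9 and 16.5 normalized counts (log2 fold change -0.14, SE 0.46, adjusted p = 0.854), again with overlapping groups.

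**Figure D2:**
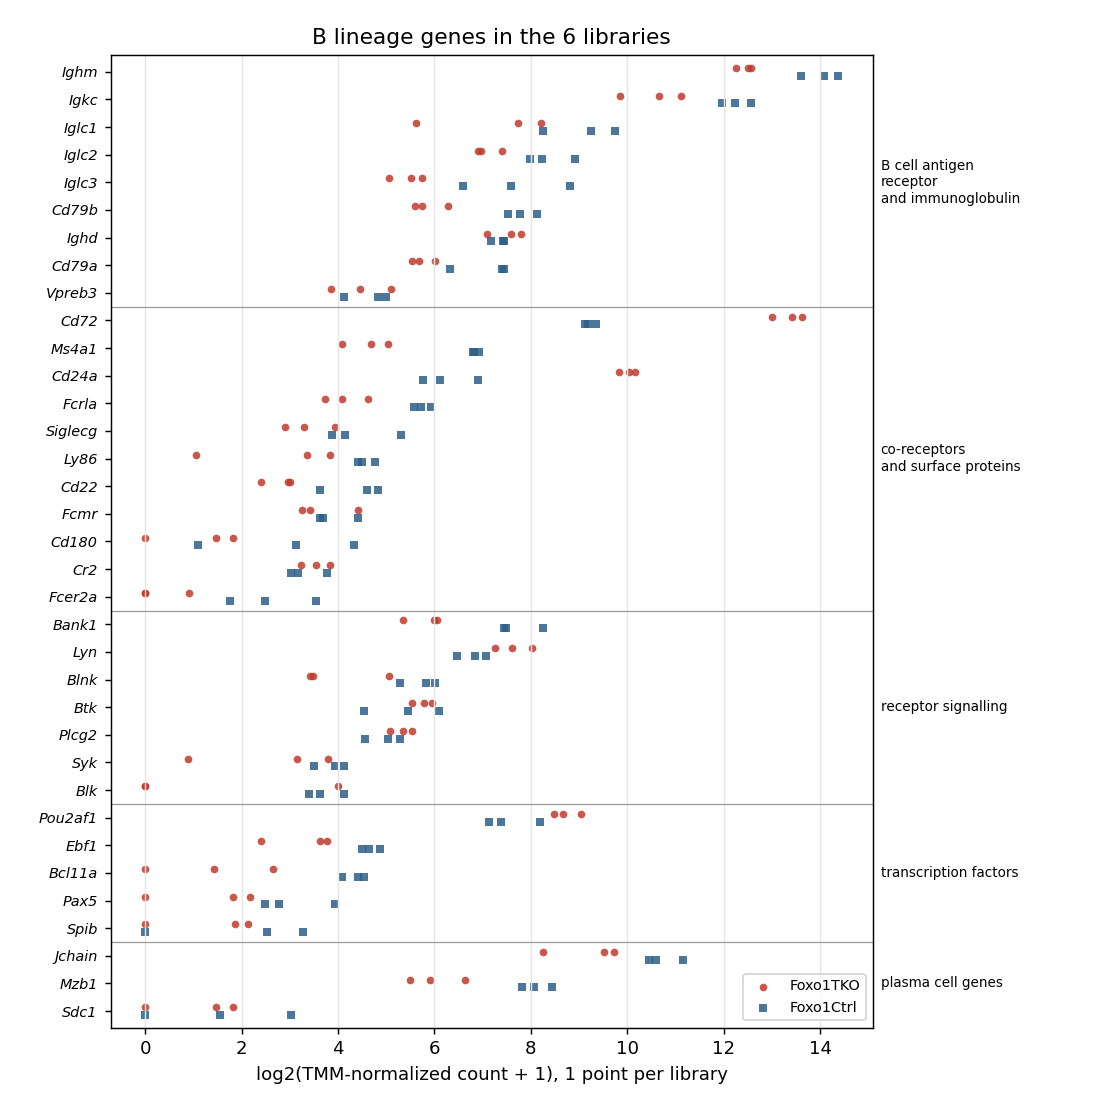
Normalized counts of all 35 members, as log2(TMM-normalized count + 1), with 1 point per library, 3 Foxo1TKO (circles) and 3 Foxo1Ctrl (squares), grouped by role and ordered by the Foxo1Ctrl mean within a role. Cd72 and Cd24a stand to the right of their Foxo1Ctrl points by more than any other member, whereas the Foxo1TKO points of Ighm, Cd79b, Ms4a1 and Mzb1 stand to the left.

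Among the 11 co-receptors and surface proteins, 9 were tested, of which 2 rose, 3 fell and 4 did not pass. Cd72 (ENSMUSG00000028459, chr4:43446462-43454628, minus strand), a C-type lectin that carries an inhibitory motif and dampens the B cell receptor, rose most of all the members. It was at 8164, 10947 and 12639 normalized counts in Foxo1TKO libraries and at 653, 553 and 583 in Foxo1Ctrl libraries, a 17.7-fold difference of the means (log2 fold change 4.15, SE 0.21, adjusted p = 3.54e-05). Each Foxo1TKO library was far above each Foxo1Ctrl library. Exons of Tesk1 overlap Cd72 on the opposite strand, and the strandedness of the counting is not given in the sources used here. Reads from the overlapping stretch therefore cannot be assigned to either gene with certainty. In every library Tesk1 held far fewer normalized counts than Cd72. Tesk1 itself held 32.1, 31.6 and 46.1 against 13.1, 0 and 4.84 normalized counts and rose as well (log2 fold change 2.44, SE 0.80, adjusted p = 0.0472).

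Cd24a (ENSMUSG00000047139, chr10:43578284-43584265, plus strand), a small glycosylphosphatidylinositol-anchored protein of immature B cells that immature T cells carry as well, was at 1144, 912 and 1046 normalized counts in Foxo1TKO libraries. The Foxo1Ctrl libraries held 53.7, 119 and 68.8, so the means differed 12.9-fold (log2 fold change 3.67, SE 0.31, adjusted p = 0.000237). The calls of Cd72 and Cd24a held in all 6 leave-one-out fits.

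Ms4a1 (chr19:11249675-11266241, minus strand), which encodes CD20, fell with the receptor chains. It was at 16.1, 31.6 and 24.7 normalized counts in Foxo1TKO libraries and at 111, 120.1 and 112 in Foxo1Ctrl libraries, a 4.75-fold difference of the means (log2 fold change -2.20, SE 0.32, adjusted p = 0.00234). The Foxo1Ctrl libraries lay within a narrow range for Ms4a1 and well above all Foxo1TKO libraries. Fcrla, an intracellular Fc receptor-like protein of B cells, was at 16.1, 12.3 and 23.6 against 46.5, 51.5 and 60.1 (log2 fold change -1.56, SE 0.36, adjusted p = 0.0154), a call that was lost without Foxo1TKO replicate 2 (adjusted p = 0.0723) or Foxo1Ctrl replicate 3 (adjusted p = 0.0572).

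Cd22, a sialic acid-binding inhibitor of the receptor, was at 6.76, 7.02 and 4.29 normalized counts in Foxo1TKO libraries and at 27.4, 11.4 and 23.3 in Foxo1Ctrl libraries (log2 fold change -1.62, SE 0.51, adjusted p = 0.0386). Its call was lost in each of the 3 leave-one-out fits in which it was tested, with adjusted p of 0.0771, 0.103 and 0.096 without Foxo1TKO replicate 1, 2 and 3, and it also changed with the treatment of gene length. With RSEM's effective gene lengths as offsets, the log2 fold change was -0.83 (adjusted p = 0.519), and its mean level per length was 0.433 ± 0.422 TPM (SD, n = 3) in Foxo1TKO and 0.633 ± 0.393 TPM (SD, n = 3) in Foxo1Ctrl libraries.

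The other surface proteins did not pass, and their counts were low. Siglecg, an inhibitory lectin related to Cd22, was at 14.4, 8.77 and 6.44 against 16.7, 13.7 and 38.8 normalized counts (log2 fold change -1.15, SE 0.56, adjusted p = 0.154). Ly86, the partner of the Toll-like receptor homolog Cd180, was at 9.30, 13.2 and 1.07 against 20.3, 21.7 and 26.2 (log2 fold change -1.40, SE 0.65, adjusted p = 0.137). Although the Ly86 counts of the genotypes did not overlap, the Foxo1TKO libraries varied widely. Cr2, the complement receptor CD21, was at 8.45 to 13.2 against 7.15 to 12.6 normalized counts (adjusted p = 0.789), and Fcmr, an Fc receptor for IgM, at 8.59 to 20.3 against 11.4 to 20.3 (adjusted p = 0.833). Cd180 held 3, 2 and 0 counts in Foxo1TKO and 16, 1 and 8 in Foxo1Ctrl libraries, and Fcer2a, the IgE receptor CD23, held 0, 1 and 0 against 2, 4 and 11, and neither was tested.

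Among the 7 genes of receptor signalling, 1 fell, none rose and 6 did not pass, against 11.8% of all tested genes lower and 11.1% higher. Bank1 (chr3:136053363-136326066, minus strand), a B cell scaffold protein, was at 62.5, 64.9 and 39.7 normalized counts in Foxo1TKO libraries and at 173, 303 and 178 in Foxo1Ctrl libraries, a 3.91-fold difference of the means (log2 fold change -1.94, SE 0.33, adjusted p = 0.00469). The groups did not overlap, and the call held in all 6 leave-one-out fits. Blnk, the adaptor that links Syk to Btk and Plcg2, was at 10.1, 32.5 and 9.66 against 38.2, 56.0 and 63.9 (log2 fold change -1.54, SE 0.53, adjusted p = 0.0644). Foxo1TKO replicate 2 held the highest Blnk count of its group, and without it Blnk passed (adjusted p = 0.0208).

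The kinases of the pathway, which other leukocytes also use, did not pass. Lyn (chr4:3678115-3813122, plus strand), the Src family kinase that starts and restrains the signal, was at 194, 153 and 260 normalized counts in Foxo1TKO libraries and at 113, 134 and 87.2 in Foxo1Ctrl libraries (log2 fold change 0.85, SE 0.28, adjusted p = 0.0628). Every Foxo1TKO library was above every Foxo1Ctrl library for Lyn, so its values lay on the side of Cd72 and not on that of Cd79b. Btk was at 60.9, 54.4 and 45.1 against 42.9, 67.5 and 22.3 (log2 fold change 0.28, SE 0.42, adjusted p = 0.678), and Plcg2 at 33.0, 39.5 and 45.1 against 22.7, 37.7 and 32.0 (log2 fold change 0.33, SE 0.34, adjusted p = 0.512). Syk, at 0.845 to 12.9 against 10.3 to 16.5 normalized counts (adjusted p = 0.39), and Blk, at 0, 14.9 and 0 against 9.54, 11.4 and 16.5 (log2 fold change -1.15, SE 1.16, adjusted p = 0.463), were near the limit of detection.

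Of the 5 transcription factors, 3 were tested, and 1 rose, 1 fell and 1 did not pass. Pou2af1 (chr9:51213708-51240080, plus strand), the co-activator of octamer-binding factors, was at 527, 357 and 408 normalized counts in Foxo1TKO libraries and at 165, 140 and 293 in Foxo1Ctrl libraries, 2.16-fold higher by the means (log2 fold change 1.11, SE 0.31, adjusted p = 0.0359). The groups did not overlap, but Foxo1Ctrl replicate 3 came close to the Foxo1TKO range, and the call was lost in 5 of the 6 leave-one-out fits, with adjusted p from 0.0706 without Foxo1Ctrl replicate 2 to 0.124 without Foxo1Ctrl replicate 1. Bcl11a, a zinc finger factor needed for early B cell development, was at 1.69, 5.26 and 0 against 20.3, 16.01 and 22.3 (log2 fold change -2.59, SE 0.77, adjusted p = 0.0248), and its call was lost without Foxo1TKO replicate 1 (adjusted p = 0.067).

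Ebf1, which specifies the B lineage, was at 12.7, 11.4 and 4.29 normalized counts in Foxo1TKO libraries and at 21.5, 24.0 and 28.1 in Foxo1Ctrl libraries, with no overlap but without passing (log2 fold change -1.27, SE 0.47, adjusted p = 0.0751). Pax5, which holds cells to the B lineage, had 3, 4 and 0 counts in the Foxo1TKO libraries and 12, 4 and 6 in the Foxo1Ctrl libraries. Spib, an Ets family factor, had 4, 3 and 0 against 4, 0 and 9, and neither was tested.

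Both tested plasma cell genes fell. Jchain (chr5:88519809-88527891, minus strand) was at 302, 850.2 and 732 normalized counts in Foxo1TKO libraries and at 1544, 2281 and 1388 in Foxo1Ctrl libraries, with a 2.77-fold difference of the means (log2 fold change -1.47, SE 0.38, adjusted p = 0.0262). Mzb1 was at 43.9, 98.3 and 59.0 against 348, 224 and 266, a 4.17-fold difference (log2 fold change -2.04, SE 0.35, adjusted p = 0.0046). The genotypes did not overlap for either gene. The Jchain call was lost without Foxo1TKO replicate 3 (adjusted p = 0.0609), Foxo1Ctrl replicate 1 (0.0528) or Foxo1Ctrl replicate 2 (0.0553), whereas that of Mzb1 held in all 6 fits. Sdc1, the plasma cell surface marker CD138, held 3, 2 and 0 against 6, 0 and 2 counts and was not tested, so the plasma cell genes rest on Jchain and Mzb1.

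In absolute terms, the B lineage transcripts were a small set of abundant genes and a long tail of rare ones. In the Foxo1Ctrl libraries, Igkc was at 854 ± 93.7 TPM (SD, n = 3) and Ighm at 781 ± 263 TPM, with Jchain at 86.9 ± 14.4 and Cd72 at 35.4 ± 6.19 TPM. The λ constant regions, whose reads can be split between copies, were at 127 ± 48.7 (Iglc1), 59.9 ± 14.2 (Iglc2) and 51.8 ± 32.9 TPM (Iglc3). Igkc and Ighm were within each other's spread. In the Foxo1TKO libraries, Cd72 was at 625 ± 80.6 TPM, above Igkc at 282 ± 106 and Ighm at 263 ± 49.0 TPM, and Igkc and Ighm were again within each other's spread. The genes that define the lineage were rare throughout: Cd79b was at 3.78 ± 0.984 TPM in Foxo1TKO and 13.9 ± 1.66 TPM in Foxo1Ctrl libraries, and Pax5 at 0.0167 and 0.08 TPM. T cell receptor genes were far above them, with Trac at 3037 and 2442 TPM.

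The summed level of the members was 1196, 1520.0 and 1398 TPM in the Foxo1TKO libraries and 2351, 1962 and 1939 TPM in the Foxo1Ctrl libraries, a ratio of the means of 0.658. Without the immunoglobulin constant genes the order turned, to 649 to 807 TPM in Foxo1TKO against 199 to 211 TPM in Foxo1Ctrl libraries, a ratio of 3.64. Without Cd72 as well, it turned back, to 113 to 124 against 161 to 173 TPM and a ratio of 0.697. The summed level was therefore set by few genes. Cd72 made up 42.5% to 49.5% of the member TPM in Foxo1TKO libraries and 1.4% to 1.9% in Foxo1Ctrl libraries, while Igkc made up 15.3% to 25.8% and 37.6% to 47.3%.

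**Figure D3:**
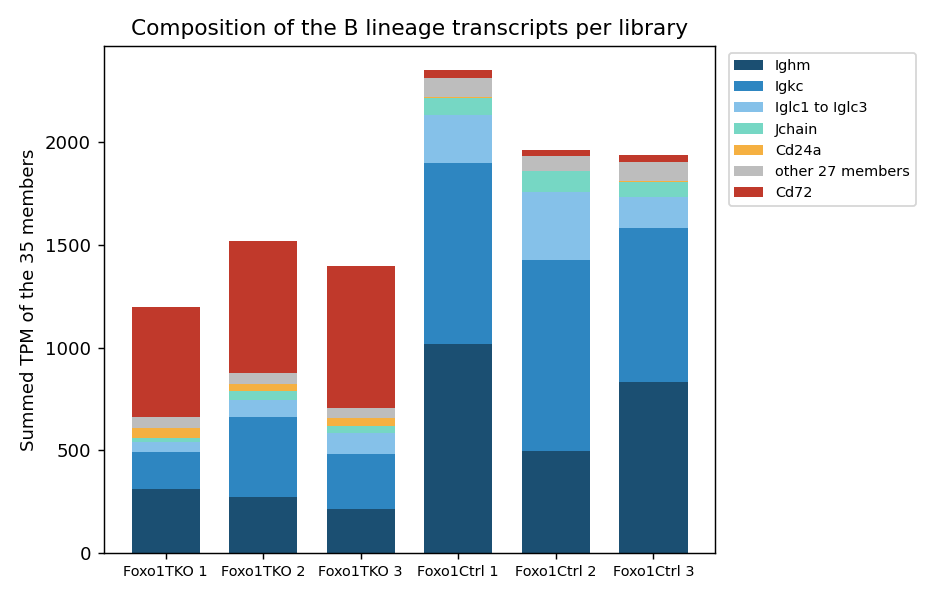
Summed TPM of the 35 members in each library, stacked by gene, with the members outside the 8 genes named drawn as 1 block. The immunoglobulin blocks (blue) are taller in the 3 Foxo1Ctrl libraries, and the Cd72 block (red), at 42.5% to 49.5% of the bar, is present at that size in the 3 Foxo1TKO libraries.

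B cells are among the splenocytes that were added to every culture. The defining B cell genes Cd79a, Cd79b, Ms4a1 and Pax5 were detected at a summed 6.36 to 8.19 TPM in Foxo1TKO and 21.1 to 25.9 TPM in Foxo1Ctrl libraries, so B lineage RNA was present in the cultures of both genotypes. Levels of pairs of members within a library were then compared as ratios of their TPM values.

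These pairs were picked with the calls known, so their ratios restate the fold changes and are given as a description. The ratio of Jchain to Igkc, both called lower, was 0.0966, 0.112 and 0.131 in Foxo1TKO and 0.0941, 0.111 and 0.0998 in Foxo1Ctrl libraries. The ratio of Cd72, called higher, to Cd79a, called lower, was 208, 254 and 229 against 4.404, 8.24 and 4.25. The cell that made the transcripts of either kind was not determined.

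**Figure D4:**
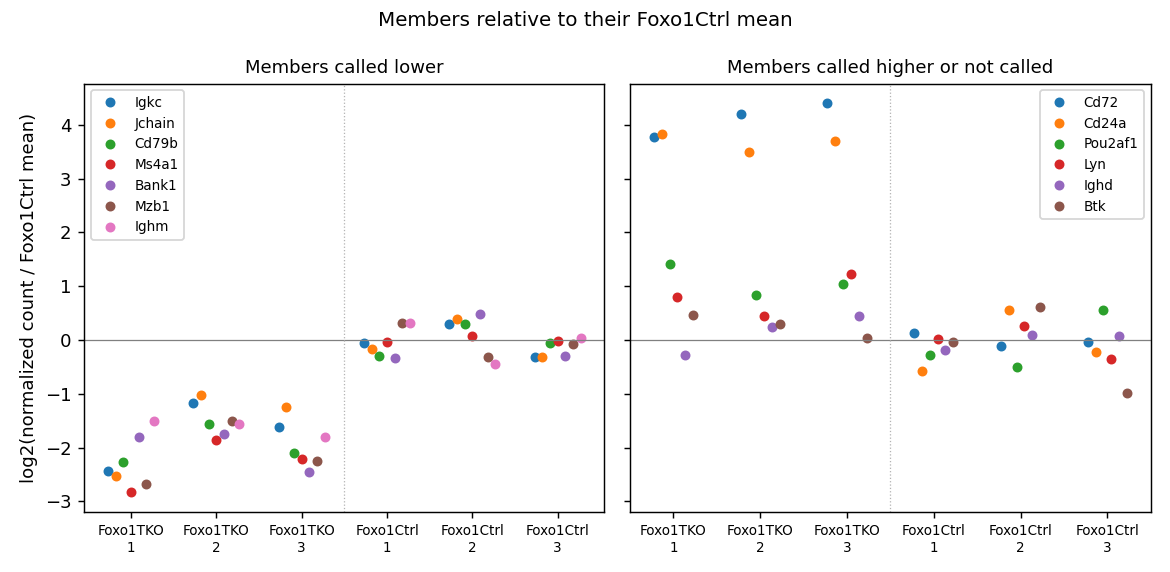
Normalized count of single members in each library, as log2 of the ratio to the member's Foxo1Ctrl mean, with 7 members called lower on the left and 3 called higher and 3 not called on the right. In the left panel all Foxo1TKO points lie below all Foxo1Ctrl points, and in the right panel Cd72 and Cd24a lie above 3 on the log2 scale in every Foxo1TKO library.

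Within a genotype the members did not rank the libraries alike. Of the 13 members called lower, 7 were highest in Foxo1Ctrl replicate 2 among the Foxo1Ctrl libraries (Igkc, Iglc2, Iglc3, Cd79b, Ms4a1, Bank1 and Jchain), whereas 5 were lowest there (Ighm, Cd79a, Cd22, Bcl11a and Mzb1). Among the Foxo1TKO libraries, 9 of the 13 were highest in replicate 2.

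The variable segments of immunoglobulin, which were looked at after the values of the constant genes had been seen, were counted as well. The 160 κ variable genes, of which 93 had a count above 0, summed to 579, 1401 and 777 counts in Foxo1TKO libraries and 2175, 2812 and 2250.0 in Foxo1Ctrl libraries. Per 100 counts of Igkc these were 53.3, 55.6 and 51.8 against 54.2, 52.9 and 54.5 counts. The κ variable and constant counts thus stood in nearly the same ratio in all 6 libraries, which was not so for the heavy chain. The 185 heavy chain variable genes, 90 of them above 0, summed to 144, 259 and 122 against 447, 206 and 414 counts, with overlapping genotypes. Per 100 counts of Ighm these were 2.02, 3.92 and 2.68 against 2.51, 1.88 and 2.30 counts. On the TPM scale, the ratio of variable to constant genes was 0.118 to 0.259 for the heavy chain and 0.881 to 0.982 for κ. Most heavy chain constant signal thus had no variable signal beside it, and the reason was not tested. The variable counts were spread over many variable genes, although the number of B cells behind them was not measured.

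Other genes known from B cells moved in both directions. Of 31 such genes, 26 were tested, 7 rose and 7 fell, against 11.1% and 11.8% of all tested genes. The other 12 did not pass, and the 26 had a median log2 fold change of -0.62. The lower ones included the class-switched constant regions Ighg2c (22.0, 19.3 and 0 against 265, 124 and 288 normalized counts, log2 fold change -3.90, SE 0.81, adjusted p = 0.01), Ighg2b (log2 fold change -2.80, adjusted p = 0.0187) and Ighg3 (log2 fold change -1.34, adjusted p = 0.0404). Reads can be shared between these related genes. Prdm1, the plasma cell regulator that effector T cells also use, fell as well (5.92, 0.877 and 2.15 against 82.3, 64.0 and 56.2 normalized counts, log2 fold change -4.08, SE 0.57, adjusted p = 0.00143), as did the repressor Bach2 (log2 fold change -0.995) and the adaptor Dapp1 (log2 fold change -0.63). Prdm1 and Ighg2b passed the count minimum through the Foxo1Ctrl libraries alone, so the filter itself required them to be higher there.

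The higher ones included Fcrl1, an Fc receptor-like surface protein of B cells (558, 748 and 791 against 37.0, 38.9 and 33.9 normalized counts, log2 fold change 4.22, SE 0.23, adjusted p = 4.5e-05). Cd83, a surface protein of activated lymphocytes and dendritic cells, was at 5395, 7657 and 7484 against 378, 423 and 530.0 (log2 fold change 3.94, SE 0.22, adjusted p = 4.88e-05). For both genes every Foxo1TKO library was above every Foxo1Ctrl library. Irf8 (log2 fold change 2.45), Cd38 (2.12), Ccr6 (1.66) and Swap70 (1.34) also rose.

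Among 32 signalling genes shared by B and T cells, 5 rose and 6 fell, against 11.1% and 11.8% of all tested genes. The other 21 did not pass, and the 32 showed no common direction, with a median log2 fold change of 0.00. The higher ones were the tetraspanin Cd81, found on B and T cells (log2 fold change 2.16), the phosphatase Ptpn6 (1.14), Rasgrp1 (1.05), Inpp5b (0.72) and Pik3r1 (0.64). The lower ones were the kinase subunit Pik3cd (log2 fold change -1.64), the protease Malt1 (-1.37), the exchange factor Sos1 (-1.32), the ubiquitin ligase Cblb (-1.05) and the calcium channels Itpr1 (-0.80) and Itpr2 (-0.71).

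Markers of the other cells the cultures could hold were measured beside the members. The 12 T cell markers summed to 13990.0 to 15190.0 TPM in Foxo1TKO and 16670.0 to 17890.0 TPM in Foxo1Ctrl libraries, and 2 of them fell (Cd28 and Trbc2). Of the 12 macrophage and monocyte markers, 2 passed the count minimum and neither was called, Mertk, C1qa and C1qc were at 0 in every library, and the list summed to 4.69 to 6.03 against 2.63 to 4.29 TPM. Of the 9 dendritic cell markers, 4 were tested and 1 rose (Itgax), with sums of 12.6 to 14.97 against 4.1 to 10.1 TPM. Itgax alone held a mean of 7.12 TPM in Foxo1TKO and 0.15 TPM in Foxo1Ctrl libraries, while Zbtb46, Xcr1 and Ccl22 were not called. Itgax passed the count minimum through the Foxo1TKO libraries alone, so the filter itself required it to be higher there.

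Of the 7 neutrophil markers, 1 was tested and fell (Mmp9), with sums of 0.14 to 5.54 against 1.04 to 1.47 TPM and Retnlg at 0. Of the 8 NK cell markers, 6 were tested, Eomes rose and Klrk1 fell, Klra8 was at 0, and the sums were 96.5 to 195 against 171 to 239 TPM. The paper reports the Eomes rise as one of the activated T cells, so the list is not specific to NK cells. Klrk1 alone held a mean of 70.3 TPM in Foxo1TKO and 140 TPM in Foxo1Ctrl libraries, and Ncr1 0.33 and 0.213 TPM. None of the 3 tested of 7 erythroid markers was called, Slc4a1 was at 0, and the sums were 35.4 to 65.0 against 40.2 to 69.6 TPM. Their part in the results of the members was not tested.

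MHC class II genes, with which B cells and other splenocytes present antigen, also moved in both directions, with 5 of 9 lower and 1 higher. Over all tested genes, 11.8% were called lower and 11.1% higher. H2-Ob, a chain of the peptide-loading modulator that B cells carry, changed most in this list, at 35.5, 57.0 and 63.3 against 1114, 1009.8 and 917 normalized counts (log2 fold change -4.27, SE 0.26, adjusted p = 7.53e-05). H2-Ab1 was at 273, 479 and 300.5 against 1673, 1725 and 1513 normalized counts (log2 fold change -2.22, SE 0.24, adjusted p = 0.000668), and the invariant chain Cd74 had a log2 fold change of 0.995 (SE 0.24, adjusted p = 0.0211).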

How the data were processed

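RNA of 6 activated CD4 T cell cultures was sequenced, 3 per genotype, and samples were grouped by the genotype and replicate number of their titles. Per the file headers and the study's methods, the authors used STAR 2.7.6a to map reads to GRCm38, kept reads mapping uniquely or to several loci with a count adjustment, and deposited RSEM 1.3.1 expected counts and TPM values per gene and library. They also deposited a table of normalized signal, in which size factors of DESeq2 and the relative effective gene length were divided out of the expected counts. Trimming and strandedness are not given in the sources used here.

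Here the expected counts were rounded and normalized with TMM, genes reaching 10 counts in 3 or more libraries were tested, and genotypes were compared in R 4.3.3 by edgeR 4.0.16 (glmQLFit and glmQLFTest with a prior count of 1). The model held genotype alone, and p-values were adjusted by Benjamini-Hochberg. Normalized counts are TMM-scaled counts, TPM values served for levels between genes, and sums and ratios over members were not tested. Library totals (14783890 to 19675447) limit the precision for genes with few counts. Alternatives were DESeq2 1.42.0 (the study's test), limma-voom (limma 3.58.1), other scalings and filters, effective length offsets, the authors' normalized signal with limma on log2(value + 1), a replicate block, no limit on the fold change, and each library left out in turn. The sum without immunoglobulin genes and Cd72, and the variable segments, were added after the data were seen. The edgeR fit was tested on simulated counts. The members and gene lists were chosen with earlier results of these data known, and no list was given a p-value. All 35 members are named, and of the lists of other B cell genes and of shared signalling genes the called genes with the largest change, up to 6 in each direction; some genes of these lists are not reported here. Positions came from GENCODE M21 (55141 of 55487 identifiers matched) and promoters from RefSeq. Figures were drawn with matplotlib 3.10.9.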

Additional observations from a re-analysis of the deposited data

How the results depend on the processing

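With all libraries kept, 285 of 299 results recomputed under the other tests, scalings, filters, inputs and thresholds kept their direction and their side of the threshold, and none reversed. The count of members called ran from 3 to 4 higher and 12 to 15 lower. Cd22 lost its call with limma-voom (adjusted p = 0.054), with no filter (0.0689), with effective length offsets (0.519), with the authors' normalized signal (0.55) and with the replicate block (0.0797). Calls were gained by Blnk (DESeq2, limma-voom, no filter, the authors' signal and the replicate block, adjusted p from 0.0251 to 0.049), Iglc1 (DESeq2 and no filter), Lyn (DESeq2, 0.0289) and Ebf1 (the authors' signal, 0.0349). The ratio of summed member levels, 0.658 in TPM, was 3.64 without immunoglobulin genes and 0.823 in CPM. In CPM the genotypes overlapped, with 1128, 1297 and 1284 in Foxo1TKO libraries and 1765, 1268 and 1474 in Foxo1Ctrl libraries.

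When a library was left out, 657 to 1672 genes were called higher and 933 to 1493 lower, against 1525 and 1619 with all libraries, fewest without Foxo1TKO replicate 2, and 2 to 3 members were called higher and 9 to 10 lower. Of the 16 called members, 8 (Ighm, Igkc, Cd79b, Cd72, Ms4a1, Cd24a, Bank1 and Mzb1) were called in all 6 fits. Log2 fold changes near 0 reversed for Vpreb3 (range -0.49 to 0.12, above 0 without Foxo1TKO replicate 1 or Foxo1Ctrl replicate 2), Fcmr (range -0.63 to 0.13, above 0 without Foxo1TKO replicate 2 or 3 or Foxo1Ctrl replicate 3) and Btk (range -0.052 to 0.72, below 0 without Foxo1Ctrl replicate 3). The cause was not tested. Same-numbered libraries correlated at 0.432, 0.198 and -0.109 in their deviations from the group means, and differently numbered ones at -0.455 to 0.301. These values do not settle whether the numbers mark pairs. The paper compared PD1, TIGIT and cell cycles of such cultures as paired experiments, and does not say whether the libraries were paired. With the replicate block, 1657 genes were called higher and 1661 lower, and 3 and 13 members. Depth limits the members with few counts, such as Cd22, Blk and Syk.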
